A study of Mus musculus with 4 samples.

Results

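Mitosis and cyclin genes were described in 4 RNA-seq libraries of mouse T-helper 2 cells, a kind of CD4 T cell that makes interleukin-4. The members were 10 of the 50600 genes in the count tables. They were 7 cell division genes (Ccna2, Ccne2, Ccnb1, Cdk1, Plk1, Mki67 and Top2a) and 3 features annotated on the other strand opposite one of them (Exosc9, Gm44985 and Ints8). The members were chosen by name, with their counts in these libraries known, so their own levels are given as a description with no test. The libraries came from primary cells from C57BL/6NJ mice, all of 1 group with biological replicates 1 to 4, and no other cell type, treatment or control was part of the series. Sex was not collected, age is listed as unknown, and a CD4 T cell differentiation protocol is linked without naming its agents in the labels. One donor record stands for every library and the labels do not say that the replicates came from separate mice. The spread between libraries may therefore be technical, and p-values measure only that spread.

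Cyclins are the regulatory partners of cyclin-dependent kinases and rise and fall through the cell cycle. E-type cyclins act at the entry into DNA synthesis, cyclin A2 through DNA synthesis and into mitosis, and cyclin B1 with Cdk1 at the entry into mitosis. Many genes used in G2 and mitosis are transcribed late in the cycle through promoters that hold a short element known as the cell cycle genes homology region, bound by the MuvB complex, beside CCAAT boxes bound by NF-Y. T cells that have been activated divide quickly, and Ki-67 and topoisomerase II alpha are common markers of that state.

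The libraries held 1804217 to 2711948 counts in 12398 to 14083 genes. Between 92.2% and 95.9% of each library's counts lay in genes whose exons share bases with an exon of a gene on the other strand. The sources used here do not give which strand the library kit marks. Each count below refers to the strand chosen by the counting and is not taken as the gene's activity. One feature, CT010467.1, took 1.02% and 1.14% of the counts in replicates 1 and 2, but 28.6% in replicate 3 and 14.4% in replicate 4. Cd4 had 56, 67, 71 and 20 counts in replicates 1 to 4. Gata3, the factor that defines T-helper 2 cells, had 20, 47, 44 and 22, and none of the 11 T helper markers was at 0 in every library. Cd8a, Cd79b, Ms4a1, Pax5, Lyz2, Adgre1, Itgam, Cd14, Klrb1c, Ncr1 and Klrk1 were at 0 in each library, among markers of CD8 T, B, myeloid and NK cells.

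Ccna2, which encodes cyclin A2, lies on the minus strand at chr3:36564865-36572150 (mm10) and ends against Exosc9, which encodes a structural subunit of the RNA exosome and runs on the plus strand at chr3:36552606-36565727. Ccna2 had 1187, 1040, 1164 and 958 counts in replicates 1 to 4. Exosc9 had 4449, 3886, 3971 and 3256. Replicate 4 was the lowest and replicate 1 the highest for both genes. The count of Exosc9 over that of Ccna2 was 3.75, 3.74, 3.41 and 3.40 in the same order, so the pair kept nearly the same ratio in each library. Per exon length, the level was 192 ± 34.7 TPM for Ccna2 and 599 ± 139 TPM for Exosc9 (SD, n = 4). The log2 TPM difference, Ccna2 minus Exosc9, was -1.63 ± 0.08, below 0 in each library. The 2 genes share the 510 bases chr3:36565218-36565727, which are 12.5% of the exon length of Ccna2 and 10.8% of that of Exosc9. All 510 bases are 3′ untranslated in Ccna2, while in Exosc9 they are coding for 156 bases and untranslated for 430 over its annotated transcripts.

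Plk1 encodes polo-like kinase 1, which drives centrosome maturation, spindle assembly and cytokinesis, and lies on the plus strand at chr7:122159439-122169873. Inside it, on the minus strand at chr7:122167029-122168044, lies Gm44985, a single exon of 1016 bases in the TEC class of gene models, which marks models still to be tested by experiment. Plk1 had 6, 12, 14 and 3 counts. Gm44985 had 1273, 1203, 1241 and 1430. The feature opposite the kinase thus held nearly all counts of the locus in each library. The count of Gm44985 over that of Plk1 was 212, 100.25, 88.6 and 477. In raw counts the lowest value of Plk1 stood beside the highest of Gm44985, in replicate 4. Scaled to library size, Gm44985 was highest in replicate 1, at 706 CPM against 659 in replicate 4. Per exon length the levels were 2.82 ± 1.56 TPM for Plk1 and 910 ± 121 TPM for Gm44985 (SD, n = 4). The log2 TPM difference was 8.48 ± 1.07, above 0 in 4 of 4 libraries. The stretch that the gene models share is shown because the whole overlap of this pair is 1 coding exon, exon 6 of 10 of Plk1. It is chr7:122167597-122167752, 156 bases, on the plus strand of GRCm38 from the GENCODE M21 transcript, and covers 15.4% of Gm44985 and 7.09% of the exon length of Plk1.
Plk1 exon 6: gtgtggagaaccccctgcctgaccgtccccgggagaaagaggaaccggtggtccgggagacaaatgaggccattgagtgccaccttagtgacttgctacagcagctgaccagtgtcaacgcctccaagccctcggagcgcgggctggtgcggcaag

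Ccne2 encodes cyclin E2, which activates Cdk2 at the entry into DNA synthesis, and lies on the plus strand at chr4:11191351-11204779. Ints8 encodes a subunit of Integrator, the complex that cleaves small nuclear RNAs and attenuates transcription by RNA polymerase II, and lies on the minus strand at chr4:11199158-11254258. Ccne2 had 493, 494, 493 and 490 counts. Ints8 had 781, 704, 868 and 726. Ints8 held more counts than Ccne2 in each library. Its exon length is 7472 bases against 3495, and per exon length the order was turned. The level was 101 ± 14.2 TPM for Ccne2 and 73.7 ± 8.36 TPM for Ints8 (SD, n = 4), a log2 TPM difference of 0.46 ± 0.13, above 0 in 4 of 4 libraries. Without the scaling by length the difference was -0.64. The pair shares chr4:11199297-11199431, which is coding in Ccne2 and untranslated in Ints8, and chr4:11204110-11204583, which is untranslated in Ccne2 and coding for 114 bases in Ints8. The blocks hold 135 and 474 bases, together 17.4% of the exon length of Ccne2 and 8.15% of that of Ints8.

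**Figure D1:**
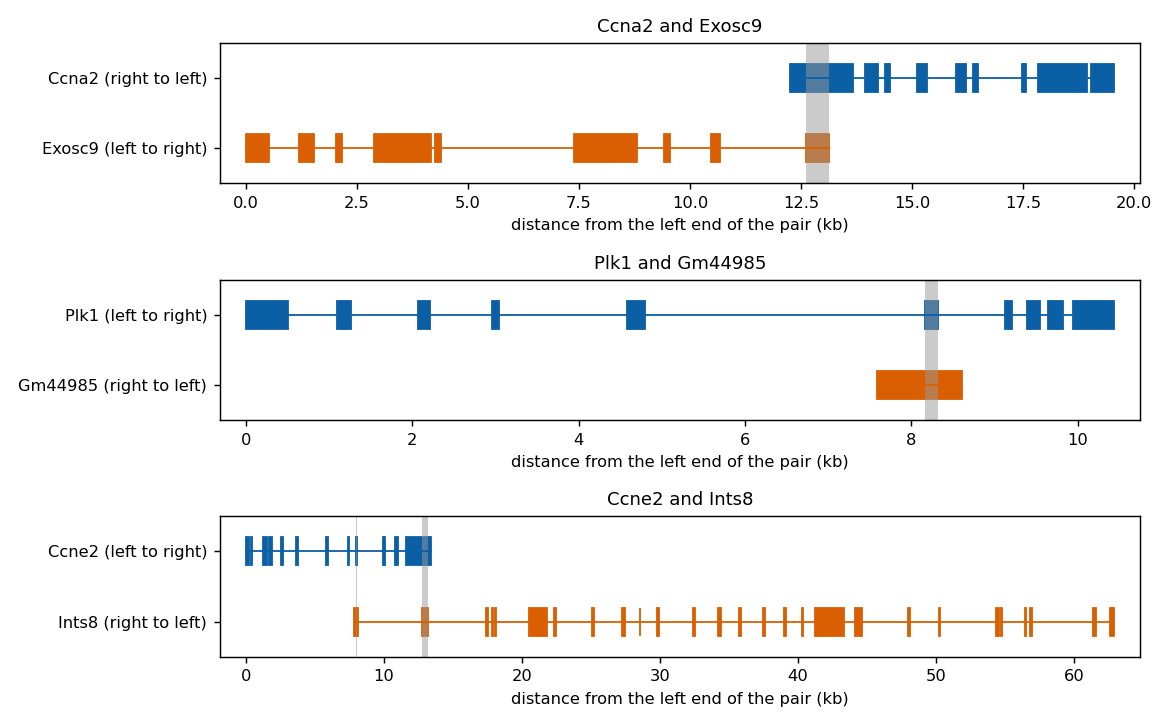
Exon blocks of the 3 pairs of members on opposite strands, as boxes joined by a line, with distance from the left end of each pair in kb on the x axis and the direction of each gene in its label. Grey bands mark exon bases that both genes hold: 510 for Ccna2 and Exosc9, 156 for Plk1 and Gm44985, and 609 in 2 blocks for Ccne2 and Ints8.

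The other 4 members, Mki67, Top2a, Cdk1 and Ccnb1, share no exon base with a gene on the other strand. Mki67 encodes Ki-67, the protein that coats mitotic chromosomes, and lies on the minus strand at chr7:135689784-135716361. It had 243, 267, 341 and 52 counts. Top2a encodes topoisomerase II alpha, which untangles sister chromatids, and lies on the minus strand at chr11:98992943-99024189. It had 142, 208, 168 and 21 counts. Both genes were lowest in replicate 4, by a wide margin. Cdk1, the kinase that drives mitosis, lies on the minus strand at chr10:69335146-69352938. It had 32, 24, 31 and 6 counts. Ccnb1, which encodes cyclin B1, lies on the minus strand at chr13:100778650-100786570. It had 9, 10, 10 and 0 counts, and a count of 0 in replicate 4 allows up to 3 counts, or 1.38 CPM (counting error only). The low replicate was the same for all 4 genes. Per exon length the levels were 16.1 ± 8.46 TPM for Mki67, 11.0 ± 6.96 for Top2a, 3.43 ± 1.87 for Cdk1 and 1.26 ± 0.861 for Ccnb1 (SD, n = 4).

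On the TPM scale the order of the members' mean levels was Gm44985, Exosc9, Ccna2, Ccne2, Ints8, Mki67, Top2a, Cdk1, Plk1 and Ccnb1. The 6 members that share exon bases took the first 5 places and the ninth. Mki67 was above Top2a in each library, with for example 20.4 against 11.2 TPM in replicate 3 and 3.48 against 1.57 in replicate 4. Cdk1 was above Ccnb1 in each library, at 5.27, 3.86, 3.79 and 0.818 TPM against 1.73, 1.88, 1.43 and 0. Plk1, at 2.22, 4.33, 3.84 and 0.917 TPM, was below Cdk1 in replicate 1 and above it in the others, so these neighbours had no fixed order. Ccna2 and Ccnb1, the genes of cyclins that partner Cdk1, had 192 and 1.26 TPM, but only Ccna2 shares exon bases. Over all genes with a count, the median was 4.69 TPM with shared bases and 0.731 TPM without.

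**Figure D2:**
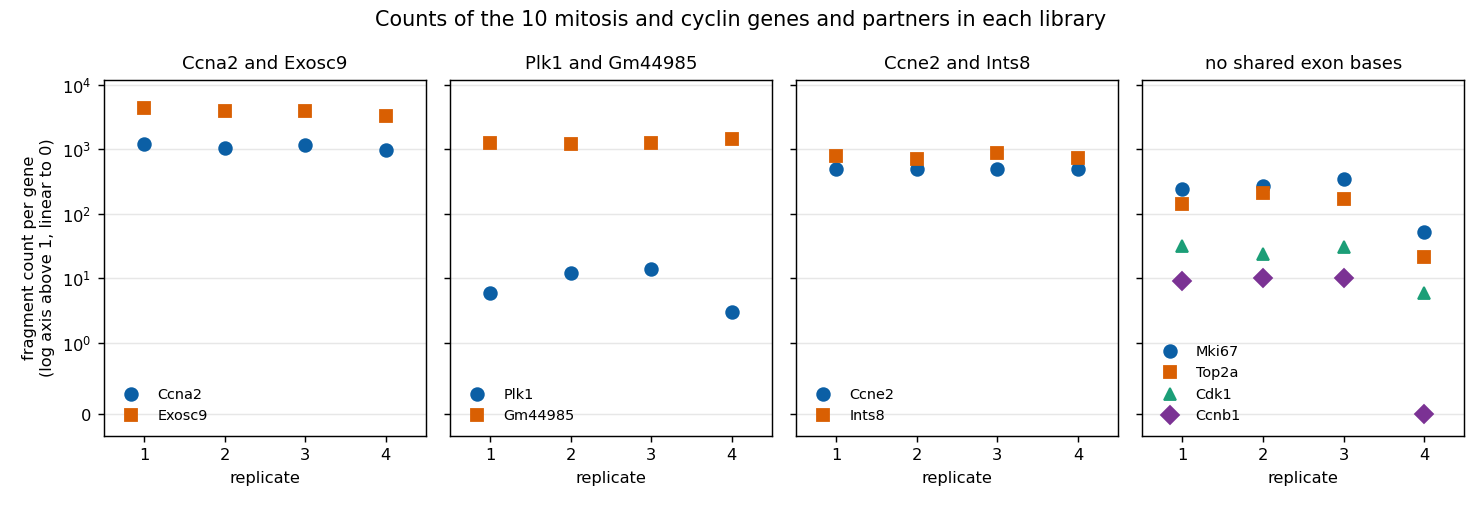
Fragment counts of the 10 members in replicates 1 to 4, on an axis that is logarithmic above 1 and linear to 0, with 1 panel for each pair and 1 for the members without shared exon bases. The pairs Ccna2 with Exosc9 and Ccne2 with Ints8 run level across the libraries, while Mki67 is at 52, Top2a at 21, Cdk1 at 6 and Ccnb1 at 0 in replicate 4.

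In replicate 4 the members with enough counts fell into those with shared exon bases, near their level elsewhere, and those without, well below it. In log2 CPM, replicate 4 minus the mean of replicates 1 to 3 was -2.48 for Mki67, -3.05 for Top2a and -2.23 for Cdk1. The same difference was -0.30 for Ccna2, -0.39 for Exosc9, -0.07 for Ccne2, -0.17 for Ints8 and 0.15 for Gm44985. Plk1 and Ccnb1 had under 10 counts in a reference library and are given by their counts alone. With TMM factors the values were -2.26 for Mki67, -2.84 for Top2a and -2.02 for Cdk1, while Ccne2 and Ints8 turned to 0.15 and 0.05. With DESeq2 size factors Ccne2, Ints8 and Ccna2 were at 0.26, 0.17 and 0.04. Over all 5463 genes that had 10 or more counts in each of replicates 1 to 3 the median was -0.20 with CPM, 0.01 with TMM factors and 0.13 with DESeq2 size factors, and each difference is to be read against that shift. The summed counts of the 4 members without shared bases were 426, 509, 550 and 79, or 236, 276, 203 and 36.4 CPM. In bulk RNA, fewer dividing cells and less of these RNAs per cell cannot be told apart, and neither was tested. Both readings also take the counts as RNA of these genes, which was not tested, as the strand that the kit marks is not given. The fall was not particular to these members. Among the 5463 genes, 55.9% of the 2115 without shared bases were more than 1 lower in replicate 4. Of the 3348 with shared bases, 10.3% were. The limit of 10 counts was set on replicates 1 to 3 alone. It is one-sided and can favour genes that are low in replicate 4, most of all near the limit.

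The same split was read over 93 further cell division genes in 10 lists by role. Of these, 66 share no exon bases, and 32 of the 66 had at least 10 counts in each of replicates 1 to 3. In replicate 4, 27 of the 32 were more than 1 lower in log2 CPM, where 55.9% of the 2115 like genes of the whole table were. Their median was -1.72 against -1.24 for the like genes, and was also -1.72 with Ect2, at 0 in replicate 4, put at 3 counts. The like genes met the same one-sided limit but were not matched for count level. Some of the 32 lay near the limit, such as Ect2 with 11, 11, 10 and 0 counts and Nuf2 with 15, 14, 10 and 4. With at least 30 counts, 7 of 23 further genes of both classes were lower, against 30 of 52 with at least 10. The 7 were Kif11, Kif15, Smc2, Smc4, Ncapd2 and Cenpe, without shared bases, and Ccnd2, with them. Incenp, also without shared bases, met the limit of 30 and was not lower. The pooled share changes with the mix of classes, so it does not show the part of genes near the limit. As the like genes were not matched for count level, the gap to them cannot be ascribed to cell division. Among the 27 further genes with shared exon bases, 20 had at least 10 counts and 3 of the 20 were more than 1 lower, where 10.3% of 3348 like genes were. Their median was -0.23 against -0.06. Both medians lay below those of the like genes, by amounts that were not tested, and the step between the classes was present in the whole table. As a description, the eligible cell division members were 3 of 3 lower without shared bases (Mki67, Top2a and Cdk1) and 0 of 2 with them (Ccna2 and Ccne2).

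Single genes show the split in counts. Kif11, a motor that pushes spindle poles apart, had 56, 66, 39 and 8 counts. Smc4, a condensin core subunit, had 176, 209, 183 and 60. Birc5, which encodes survivin of the chromosomal passenger complex, had 25, 27, 12 and 1. These genes share no exon base and were lowest in replicate 4. Incenp, the scaffold of the same passenger complex, also shares none and had 142, 125, 196 and 136 counts, a log2 CPM difference of -0.21. Wee1, the kinase that restrains Cdk1, was highest in replicate 4 with 21, 37, 35 and 71 counts, and was the only 1 of 52 eligible further genes more than 1 higher, at 1.17. Ccnd2, a D-type cyclin of G1 with 740 shared bases, went against its class with 62, 77, 66 and 13 counts. Kif11, Kif15, Ect2, Ncapd2 and Smc2, and below Ccna1, Cdkn1b, Cdkn2b, E2f7, Gm44732 and the features with a mean under 100 counts, stand outside the rule for named genes. They were picked after their values were seen.

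**Figure D3:**
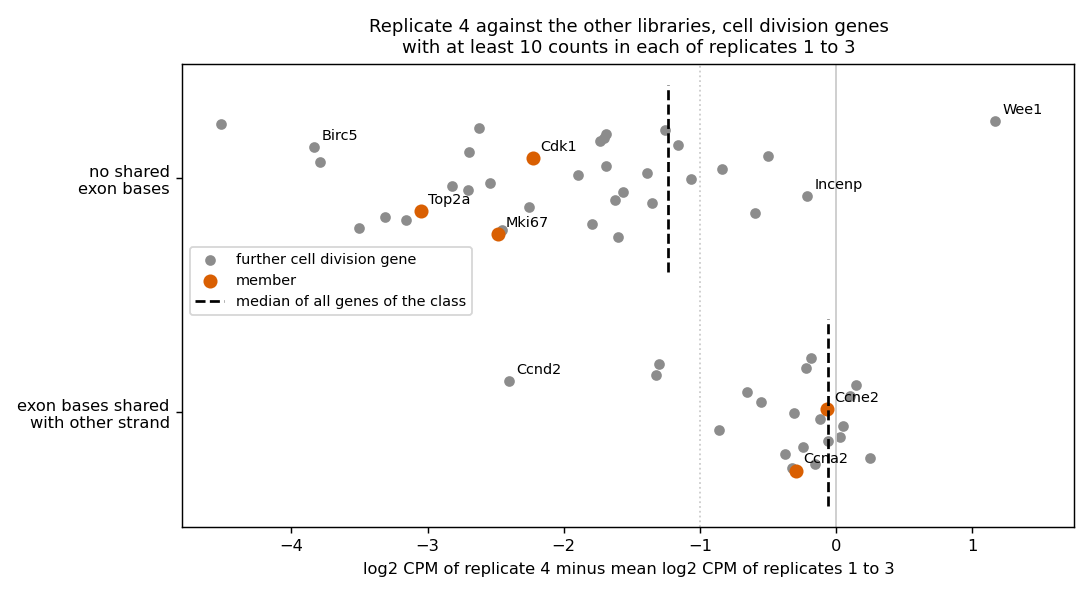
Difference of replicate 4 from the mean of replicates 1 to 3 in log2 CPM (x axis) for cell division genes with 10 or more counts in replicates 1, 2 and 3, by whether their exons share bases with the other strand, with members in orange and the median of all like genes as a dashed line. Mki67, Top2a and Cdk1 lie left of the dotted line at -1, while Ccna2 and Ccne2 lie beside the median of their class, -0.06.

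Other measures moved with replicate 4. It had the fewest genes with a count, 12398, and the highest share of counts in genes with shared exon bases, 95.9%. The 8 T helper markers without shared bases summed to 198, 284, 218 and 64 counts. Of the 7 of them with at least 10 counts in replicates 1 to 3, 6 were more than 1 lower in replicate 4, where 55.9% of like genes were. Here too the limit was one-sided and the like genes were not matched for count level. Cd68, a myeloid marker, went the other way with 13, 6, 7 and 18 counts, while Csf1r, which shares 871 exon bases, had 1026, 993, 1006 and 983. Cd79a of B cells had 9, 15, 12 and 12, and Cd8b1 3 to 4. The part of these measures in the members' low counts was not tested.

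A formal check of spread between libraries called no further cell division gene, but its filter left out genes with few counts in replicate 4. To enter, a gene had to reach the count limit of the default filter in all 4 libraries. Kif11, with 56, 66, 39 and 8 counts, did not enter, so the check cannot speak for such genes. In edgeR's quasi-likelihood fit with Benjamini-Hochberg adjustment, 1 of 4190 genes tested varied more than genes of its level (0.0239%), and that gene was CT010467.1. Of 25 further cell division genes that entered this test, 0 were called and 3 had an unadjusted p under 0.05 (Ccnd2, Smc2 and Smc4), as had 277 of all 4190 genes (6.61%). Among the dispersion outliers of DESeq2, run on the same 4190 genes, 0 were further cell division genes.

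Outside the lists, the genes whose pattern over the 4 libraries was most like that of the 4 members without shared bases were led by ribosomal protein and actin genes. Likeness was the root mean square difference between a gene's log2 CPM deviations and the members' median deviations, over 4 libraries and 2709 genes outside the lists. The closest was Rps3, a protein of the small ribosomal subunit, at 0.0598 with 148, 171, 165 and 22 counts. Rps20, of the same subunit, followed at 0.0649, and then the cytoplasmic actins Actg1 at 0.0796 and Actb at 0.0839. Actb had 276, 324, 299 and 48 counts. Atad2, a chromatin-bound ATPase, came after them at 0.0840 with 73, 77, 89 and 12. All 5 genes share no exon base with the other strand.

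RefSeq promoters on GRCm38.p6 were matched for 5 of the 10 members, namely Plk1, Mki67, Ccnb1, Cdk1 and Top2a, which include each of the members without shared bases. The 250 bases before the start were searched on both strands for TTTGAA and TTTAAA, the forms of the cell cycle genes homology region, and for CCAAT. The form TTTAAA is its own reverse complement and no matches overlapped. Each of the 5 windows held TTTGAA or TTTAAA together with CCAAT, where 8.78% of the 32851 promoters in the RefSeq table did. Taken alone, TTTGAA was in 16.0% of them, TTTAAA in 12.1% and CCAAT in 33.8%. A match describes the letters and is not a measured site. The windows of 3 members are shown, with the matches in capitals, to let the arrangement be seen: Plk1 at chr7:122159185-122159434 on the plus strand, Mki67 at chr7:135716380-135716629 on the minus strand and Top2a at chr11:99024190-99024439 on the minus strand.
Plk1 promoter: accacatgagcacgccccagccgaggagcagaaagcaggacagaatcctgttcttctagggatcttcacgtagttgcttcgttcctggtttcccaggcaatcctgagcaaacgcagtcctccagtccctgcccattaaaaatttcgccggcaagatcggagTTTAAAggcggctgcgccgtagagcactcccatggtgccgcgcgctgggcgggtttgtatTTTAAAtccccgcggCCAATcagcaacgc
Mki67 promoter: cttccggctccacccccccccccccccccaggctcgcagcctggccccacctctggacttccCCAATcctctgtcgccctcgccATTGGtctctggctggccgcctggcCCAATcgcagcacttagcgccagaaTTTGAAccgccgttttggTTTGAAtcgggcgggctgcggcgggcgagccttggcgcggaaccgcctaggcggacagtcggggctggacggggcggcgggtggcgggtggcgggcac
Top2a promoter: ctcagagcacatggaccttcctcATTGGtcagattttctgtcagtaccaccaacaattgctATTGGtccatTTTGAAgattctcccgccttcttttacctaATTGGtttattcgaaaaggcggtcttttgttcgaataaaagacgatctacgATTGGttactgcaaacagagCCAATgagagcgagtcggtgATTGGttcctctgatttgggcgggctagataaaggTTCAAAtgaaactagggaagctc

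Counted back from the start, TTTAAA of Plk1 lay at bases 89 to 84 and 29 to 24, with a CCAAT at 14 to 10. Mki67 held TTTGAA at 116 to 111 and 98 to 93 and 3 CCAAT further upstream. Top2a held TTTGAA at 179 to 174 and, on the other strand, at 23 to 18, with 6 CCAAT between 227 and 54. Ccnb1 held 1 TTTAAA at 42 to 37 with 2 CCAAT upstream of it, and Cdk1 held TTTGAA at 71 to 66 and 15 to 10 with 3 CCAAT. Plk1 and Ccnb1 thus held the TTTAAA form, and Mki67, Cdk1 and Top2a the TTTGAA form. The counts of Plk1 were lowest in replicate 4, as were those of the 4 members without shared bases. In raw counts, not scaled to library size, 68 of the 93 further cell division genes were lowest there too. So were Ccna2, Exosc9 and Ccne2, for which no promoter was matched. In CPM these 3 were lowest in replicate 3, at 429, 1464 and 182 against 441, 1500 and 226 in replicate 4. Of all genes without shared bases and with at least 10 counts in replicates 1 to 3, 55.9% were more than 1 lower in replicate 4. Among genes without shared bases, the low library was thus not particular to the members with these matches.

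Levels of the 93 further cell division genes were set against 1 TPM with limma on log2(TPM + 0.1), two-sided, with Benjamini-Hochberg adjustment over the 17203 genes with a count and adjusted p under 0.05. Of the 93, 38 were above 1 TPM and 3 below, 49 were called in neither direction and 3 had no count. Over all genes tested, 32.1% were above and 26.6% below. The median level was 1.97 TPM for the further genes and 1.14 TPM for all genes. By class, 18 of 27 with shared bases were above (57.3% of all such genes) and 20 of 66 without (18.7% of all such genes). The median was 5.50 TPM with shared bases (4.69 for all such genes) and 1.65 TPM without (0.731 for all such genes). The list was chosen with earlier results of these data known.

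Among the other 7 cyclins, 5 were above 1 TPM and 0 below. The D-type cyclins of G1 led them, with Ccnd3 at 8.32 ± 2.38 TPM (118, 108, 90 and 84 counts) and Ccnd1 at 7.02 ± 1.68 (30, 55, 53 and 48). Ccna1, the germ line A-type cyclin, was at 0 in each library. Of 8 further CDKs and activators 4 were above. Cdk4, the partner of the D-type cyclins, was at 362 ± 44.9 TPM with 1674, 1546, 1779 and 1555 counts and shares 641 exon bases, while the Cdk-binding protein genes Cks1b and Cks2, with no shared bases, were at 12.6 ± 6.20 and 11.7 ± 6.09 (SD, n = 4). Of 9 CDK inhibitors and inhibitory kinases 2 were above and 2 below. Those above were Pkmyt1, a kinase that inhibits Cdk1, at 29.3 ± 6.63 TPM and Wee1 at 8.42 ± 3.98. Those below were Cdkn1b, the p27 inhibitor, with 0, 1, 1 and 0 counts, and Cdkn2b, the p15 inhibitor, with 0, 0, 0 and 1.

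Of 9 further mitotic kinases 4 were above and 0 below, among them Aurka at 4.66 ± 2.77 TPM, Aurkb at 3.14 ± 1.52 and Nek2 at 2.56 ± 0.299 (SD, n = 4). Aurka had 20, 24, 13 and 6 counts and Nek2, with 298 shared bases, 13, 16, 17 and 19. Of 12 checkpoint and anaphase-promoting complex genes 3 were above. These were Ube2s, a ubiquitin-conjugating enzyme of that complex, at 59.5 ± 15.4 TPM, its activator Cdc20 at 7.26 ± 2.78 and the checkpoint kinase Bub1b at 3.18 ± 1.60. In the chromosomal passenger complex, Incenp at 32.9 ± 3.98 TPM and Cdca8 at 18.0 ± 3.01 were above, and Birc5 was at 3.65 ± 2.98 without a call.

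Of 15 spindle motor and cytokinesis genes 8 were above and 0 below. Kif20a, a motor of the central spindle, was at 170 ± 27.5 TPM, Kif4 at 49.5 ± 4.27 and the microtubule bundler Prc1 at 7.49 ± 1.41 (SD, n = 4), each with shared exon bases. No kinetochore gene of the list shares exon bases. Of these 8, Ndc80, which binds microtubules, was above at 3.77 ± 2.27 TPM, and Cenpe and Nuf2 had no call at 2.63 ± 1.45 and 1.26 ± 0.700. Of 9 further genes of mitotic chromosome structure 5 were above, led by the condensin genes Ncaph2 at 158 ± 23.8 TPM, with 827 shared bases, and Smc4 at 22.0 ± 10.5, with none. Ncapg was at 8.21 ± 2.73. Of 13 transcription regulators of the cell cycle 4 were above and 1 below. The pocket protein genes Rb1 and Rbl2 were at 9.13 ± 1.57 and 5.50 ± 0.536 TPM and E2f4, their partner, at 5.15 ± 1.84, while E2f7 was below with 0, 5, 3 and 1 counts.

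**Figure D4:**
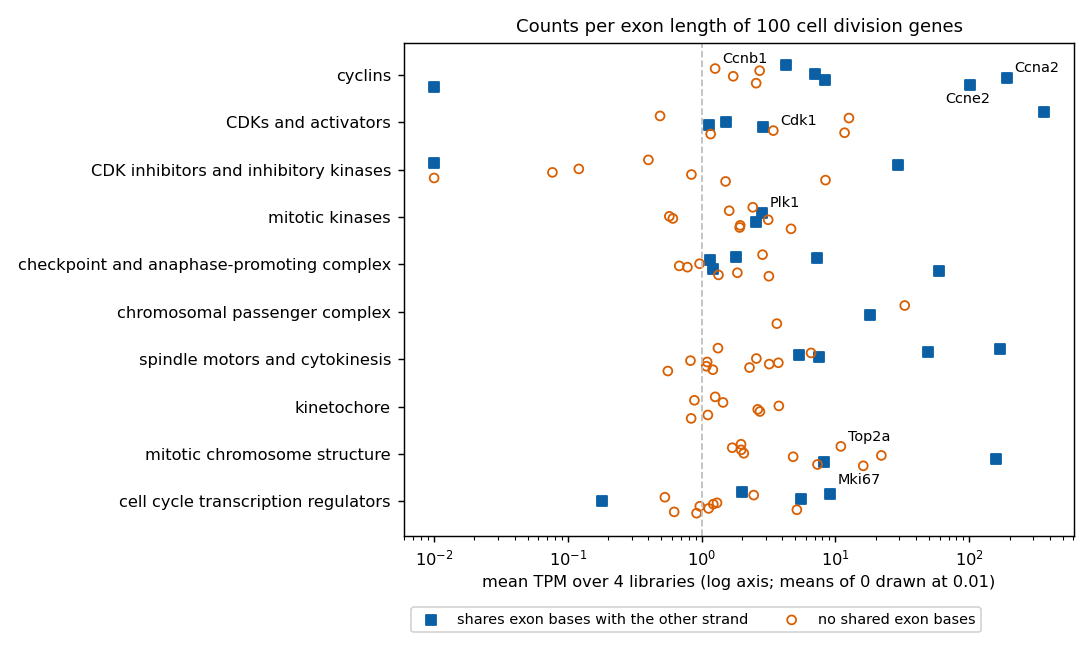
Mean TPM over 4 libraries (log axis) of 100 cell division genes in 10 lists, the 7 cell division members among them named, with filled squares for genes that share exon bases with the other strand and open circles for those that do not, and a dashed line at 1 TPM. Among the 11 genes of mitotic chromosome structure, Mki67 at 16.1 TPM and Top2a at 11.0 TPM are open circles, while Ccna2 at 192 TPM and Ccne2 at 101 TPM are filled squares.

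The partners of cyclin genes were compared with the complexes they belong to. Exosc9 at 599 TPM stood above the 9 other RNA exosome genes, whose median was 5.12 TPM and of which 6 were above 1 TPM and 0 below. The next were Exosc3 at 50.7 ± 15.3 TPM, Exosc1 at 24.6 ± 4.38 and Exosc8 at 22.2 ± 4.09 (SD, n = 4). Exosc9, Exosc3 and Exosc8 share exon bases with the other strand, and Exosc1 does not. Ints8 at 73.7 TPM stood second among the Integrator genes. Ints11, the catalytic subunit, was at 137 ± 21.2 TPM and Ints2 at 11.3 ± 1.84, both with shared bases, as has Ints8. Ints14, with no shared bases, was at 3.34 ± 1.05. The median of the 13 Integrator genes other than Ints8 was 1.06 TPM, with 3 above and 0 below.

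High counts opposite a cell division gene were not limited to the 3 pairs. Features with at least 50 exon bases shared with 1 listed cell division gene and with no other gene numbered 25 opposite 22 genes, besides those of Ccna2, Plk1 and Ccne2. Of the 25, 13 had a mean count of at least 100, 21 had more than 3 counts in each library, and 16 had a higher mean count than the gene they face, 12 of them in each library. The median of their mean counts was 110, against 59.25 for the genes. The same shares over all such features of the whole table were not computed. These counts are thus a description and are not read as particular to cell division genes.

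The pattern of Gm44985 over Plk1 was most nearly matched by Gm43126, opposite Ccnd2, with 3546, 3603, 3875 and 2734 counts against 62, 77, 66 and 13. Bysl, a ribosome biogenesis gene opposite Ccnd3, had a mean of 2880 counts, 28.8 times that of Ccnd3. Rccd1 opposite Prc1 had 2343 against 85.25, Lcorl opposite Ncapg 1351 against 79.75, and Paqr4 opposite Pkmyt1 923 against 82.25. In each of these pairs the partner was higher in each library. Cdc23, a subunit of the anaphase-promoting complex opposite Kif20a, had 3391, 3277, 3694 and 3146 counts against 947, 873, 950 and 811, and resembled Exosc9 over Ccna2 in that both sides were high. Smaller means were those of Gm45464 (496 counts) and Aktip (245) opposite Rbl2, Pdzd11 (411) opposite Kif4, Gm17590 (391) opposite Cdk6 and Gm38037 (331) opposite Nek2. The order was the other way for Sco2 opposite Ncaph2 (452 against 924) and Rpl28 opposite Ube2s (110.25 against 420).

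Opposite the genes of the partner complexes, Pusl1 had 1927 mean counts against 585 for Ints11, and Pibf1 had 582 against 34.75 for Dis3, the exosome nuclease. The other features there were smaller, with 88.75 for Gstcd opposite Ints12, 26.5 for Fgfr1op2 opposite Ints13, 14.25 for Tmem91 opposite Exosc5 and 3 for Dcaf10 opposite Exosc3. Of the 25 features opposite cell division genes, 19 had at least 10 counts in each of replicates 1 to 3. In replicate 4, 1 of the 19 was more than 1 lower in log2 CPM (Rpl28, with 97, 145, 153 and 46 counts). Another 1 was more than 1 higher (Gm44732, opposite Cdkn1c, with 16, 11, 10 and 32). Of the 3348 genes with shared bases and the same count limit, 10.3% were more than 1 lower and 93 genes more than 1 higher. Gm44985 was at 0.15 and Gm43126 at -0.48 while Ccnd2 was at -2.40.

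**Figure D5:**
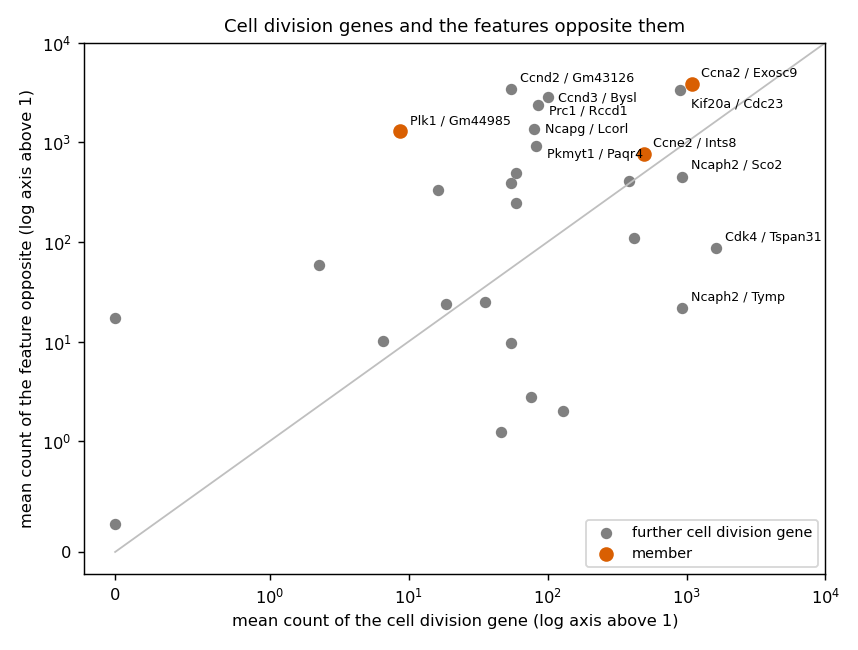
Mean count of each cell division gene (x axis) and of the feature that shares at least 50 exon bases with it on the other strand (y axis), on axes that are logarithmic above 1, with a line of equal counts and the members' pairs in orange. Of the 28 features plotted, 19 lie above the line, and Gm44985 opposite Plk1, at 1287 against 8.75, lies far from it.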

How the data were processed

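Fragments were counted by the authors with featureCounts 1.4.6-p4, per the file headers, as fragments with both ends aligned that fall in the exons of a GENCODE M13 gene, at strand setting 1. The deposited tables hold these raw counts, exon coordinates and exon length, on mm10 per the labels. The aligner's version is not given in the sources used here. The assay is labelled total RNA-seq, but its linked protocol is titled for poly(A) RNA, and only header paths name a time, 24 hours.

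The members and gene lists were chosen with earlier results of these data known. TPM was computed from counts and exon length. Symbols were matched for 50376 of 50600 gene IDs, and the exon blocks of the 10 members were the same in GENCODE M21. The test of levels against 1 TPM used limma 3.58.1 (pseudocount 0.1, trended robust variance), and that of spread edgeR 4.0.16 (intercept only, TMM, default filter, robust). Both used Benjamini-Hochberg adjustment at 0.05 and were tested on simulated counts. Deviations of a library are in log2 CPM with a prior of 0.5, and DESeq2 1.42.0 gave other size factors. Named were the members, up to 3 genes per list with the highest mean TPM and a mean count of at least 10, features opposite a listed gene with a mean count of at least 100, and the 5 genes most like the members. Genes named outside this rule are marked as such. Libraries held 1804217 to 2711948 counts, so that the 3 counts a 0 allows were 1.11 to 1.66 CPM. As alternatives, pseudocounts, filters, scalings, tools and the set of replicates were varied.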

Additional observations from a re-analysis of the deposited data

Results flagged for a closer look

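Mki67 had 23.96 CPM in replicate 4 and 125.74 to 144.6 CPM in the other libraries. The gap to the nearest library was 0.844 of the whole range, past Dixon's limit for 4 samples. Of 15 items checked in this way Mki67 alone passed the limit, and chance gives about 1 such item in 20. The gene was chosen with its counts known, so this is a description and not a test, and 55.9% of the genes without shared exon bases and with at least 10 counts in replicates 1 to 3 were also more than 1 lower in replicate 4.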

How the results depend on the processing

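With counts not scaled by exon length, the log2 difference moved from -1.63 to -1.84 for Ccna2 minus Exosc9, from 8.48 to 7.39 for Gm44985 minus Plk1, and turned from 0.46 to -0.64 for Ccne2 minus Ints8, whose exon lengths differ. With the length of unshared exon bases the last was 0.61. Of the further cell division genes, 20 were above 1 TPM when only those without shared bases were counted, and 0 were below among genes with a mean count of at least 10. Leaving out each replicate gave 28 to 52 above, the highest without replicate 4, and 1 to 3 below. The number of genes whose spread passed the edgeR test, 1, became 154 with no filter, 11 at a mean CPM of at least 1 and 0 with the legacy fit. DESeq2 gave 15 dispersion outliers. Leaving out each replicate gave 0 to 20, with 20 without replicate 4 and 0 without any other. None of these genes was a further cell division gene with no filter, at a mean CPM of at least 1, without replicate 4 or among the DESeq2 outliers. The number more than 1 lower in replicate 4, 30 of 52 with both classes pooled, became 7 of 23 with at least 30 counts and 55 of 89 with no minimum. The totals without CT010467.1, the legacy fit, the count of deviations without shared bases and the counts with members were alternatives chosen after seeing the data. Apart from the turn of Ccne2 minus Ints8 without scaling by exon length, the pair differences kept their direction under the alternatives run. Among the members, the difference of replicate 4 in log2 CPM turned to -0.04 for Gm44985 without replicate 3, and to 0.03 and 0.02 for Ccne2 without replicates 1 and 2, besides the turns under other scalings given above. Genes under 10 counts, such as Plk1 and Ccnb1, allow no firm size of difference. No paired analysis was possible because the series has 1 group.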
